A study of Mus musculus with 2 samples.

Results

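The miR-148 family comprises miR-148a, miR-148b and miR-152, which carry the same seed on their 3p arms. Its members (mmu-miR-148a, mmu-miR-148b and mmu-miR-152 in the mouse) were taken by name from the arrays, with every arm kept, which gave 6 of the 1900 mouse miRNA probes. The study measured miRNAs in mononuclear cells isolated from the lamina propria of the colon, the connective tissue under the gut epithelium, of male Balb/c mice. Mice kept specific pathogen-free (SPF), with a gut microbiota, were compared with mice raised germ-free, without one. A single array stood for each group, and the labels give neither the age of the mice nor how many contributed to a sample. With 1 array per group there is no error between samples and no test, and every difference below describes these 2 arrays. The family was selected on its log2 ratio of SPF over germ-free intensity, above all that of miR-148a-3p, so that ratio is given as a description.

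A miRNA is cut from a hairpin precursor, and one or both arms are loaded into an Argonaute protein. The seed, bases 2 to 8 from the 5′ end, pairs with sites in messenger RNAs and lowers their stability and translation. The miR-148 family is known for repressing the DNA methyltransferase Dnmt1. In mouse dendritic cells the family restrains Camk2a and with it cytokine output and antigen presentation. miR-148a also acts in B cell tolerance and plasma cell formation, through targets that include Bach2 and Mitf, and is abundant in gut epithelium. It represses the LDL receptor in liver.

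The mature sequences are shown because the members differ in few bases, which bears on how far the probes can tell them apart. They are RefSeq sequences on GRCm38.p6, 5′ to 3′, with the seed in capitals, and all 6 probes had an entry. The guide strands of this family are the 3p arms.
miR-148a-3p: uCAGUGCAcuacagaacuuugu
miR-148b-3p: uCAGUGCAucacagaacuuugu
miR-152-3p: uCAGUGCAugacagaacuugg
miR-148a-5p: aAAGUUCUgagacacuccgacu
miR-148b-5p: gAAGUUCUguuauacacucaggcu
miR-152-5p: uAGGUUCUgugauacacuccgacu

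The 3p arms share the seed CAGUGCA, which no other of the 1679 mature sequences in the table has at bases 2 to 8. Counted from 1 at the 5′ end, miR-148b-3p differs from miR-148a-3p by C9U and U10C, so 20 of 22 bases are the same. miR-152-3p differs from miR-148a-3p by C9U, U10G and U20G over the 21 bases compared, and from miR-148b-3p by C10G and U20G. Positions 9 and 10, next to the seed, are where miR-148a-3p differs from both relatives. On the 5p side, miR-148a-5p and miR-148b-5p share the seed AAGUUCU, while miR-152-5p has AGGUUCU. Compared base by base without gaps, 13 of 22 bases were the same between miR-148a-5p and miR-148b-5p, 12 of 22 between miR-148a-5p and miR-152-5p, and 19 of 24 between miR-148b-5p and miR-152-5p.

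The miR-148a precursor is printed to show where its arms lie, since both have a probe. It has 99 bases, with the 5p and then the 3p arm in capitals.
Mir148a: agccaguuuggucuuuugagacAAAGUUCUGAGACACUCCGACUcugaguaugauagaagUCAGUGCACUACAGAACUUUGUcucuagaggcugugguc

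The family comes from 3 loci. In GENCODE M21 on GRCm38, Mir148a lies on the minus strand at chr6:51269812-51269910, outside any other annotated gene, and its nearest coding gene, Nfe2l3, is 162760 bases away. Mir148b lies at chr15:103285125-103285221 in an intron of Copz1, on the same strand. Mir152 lies at chr11:96850393-96850465 in an intron of Copz2, also on the same strand. Copz1 and Copz2 encode the zeta subunits of the coatomer, the coat of vesicles that return from the Golgi to the endoplasmic reticulum. miR-148b and miR-152 therefore sit in paralogous host genes, while miR-148a has no host gene in this annotation.

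The spot intensity, the authors' median per spot, is in arbitrary units with no background removed. Spots named BLANK averaged 158.3 on the SPF array (SD 5.33, 895 spots) and 128.5 on the germ-free array (SD 4.53, 896 spots). A probe counted as above the floor when its spot exceeded the blank mean by more than 2 SD, an intensity of 169.0 on the SPF and 137.6 on the germ-free array. The 174 spots without a probe were brighter than the blanks, with a mean + 2 SD of 202.2 on the SPF and 165.8 on the germ-free array. This stricter line matters for the weaker members. Each probe has 1 spot per array, and brightness depends on how well a probe binds, so levels are compared between arrays and not between miRNAs.

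miR-148a-3p had an intensity of 1033 on the SPF array and 356.8 on the germ-free array. It ranked 219 of 1900 by brightness on the SPF and 409 on the germ-free array, and no spot without a probe was as bright on either. This is the one member well above the floor and the stricter line on each array. Its margin over the local background beside the spot was smaller. On the germ-free array that background read 298.9, which left a signal of 57.9. The spot of miR-152-3p read 208.7 on the SPF array, at rank 1022, and 164.0 on the germ-free array, at rank 1124. It passed the line from spots without a probe on the SPF array and fell just under it on the germ-free array. The spot of miR-148b-3p read 194.2 on the SPF array, at rank 1173, and 166.2 on the germ-free array, at rank 1099. It lay under the line from spots without a probe on the SPF array and just over it on the germ-free array. Of the 174 spots without a probe, 5 on the SPF and 7 on the germ-free array were brighter than miR-152-3p, and 12 and 7 were brighter than miR-148b-3p on the same arrays.

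None of the 5p arms, the passenger strands, was above the floor on both arrays. miR-148a-5p read 168.2 on the SPF array, just under the floor, and 138.0 on the germ-free array, just over it. miR-148b-5p read 173.1 on the SPF array, above the floor, and 131.6 on the germ-free array, under it. miR-152-5p read 167.0 on the SPF array, under the floor, and 143.3 on the germ-free array, above it. All 3 lay under the line from spots without a probe on both arrays, so none was told apart from an empty spot by that measure. Between 78 and 158 of the 174 spots without a probe were brighter than these probes, the fewest for miR-152-5p and the most for miR-148b-5p, both on the germ-free array.

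**Figure D1:**
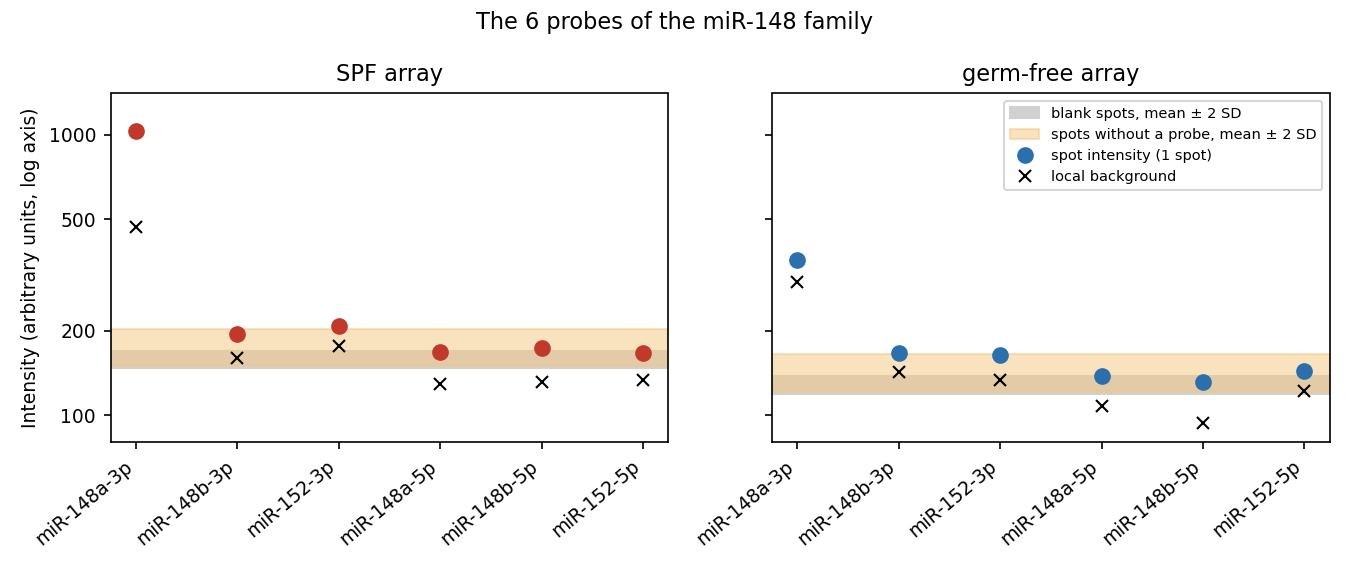
Spot intensity (circles) and local background (crosses) of the 6 probes on the SPF array (left) and the germ-free array (right), in arbitrary units on a log axis; the bands are the mean ± 2 SD of blank spots and of spots without a probe. miR-148a-3p stands at 1033 on the SPF and 356.8 on the germ-free array, while the other 5 probes lie within or at the edge of the bands.

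The comparison asked how the presence of a microbiota goes with miRNA levels in these cells. Net intensity is the spot minus the blank mean, with the SPF array multiplied by 0.849 so that the 1471 probes above the floor on both arrays had equal medians. The log2 ratio is SPF over germ-free, so a positive value means higher on the SPF array. Repeated spots of 5 bright control probes had an SD of 0.0908 on the log2 scale within an array. The technical SD of a ratio given below combines this with the SD of the blank spots on both arrays. It holds nothing of the spread between animals, extractions or hybridisations.

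miR-148a-3p had a scaled net intensity of 742.8 on the SPF array and 228.2 on the germ-free array. The log2 ratio was 1.70, or 3.25-fold higher on the SPF array, with a technical SD of 0.13. It was the third highest ratio of the 1471 shared probes, after miR-192-3p at 2.01 and miR-196a-5p at 1.86, both of them dimmer than the median shared probe. The 5 control probes, scaled the same way, had log2 ratios of 0.07 to 0.22.

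The ratios of the other 3p arms were closer to 0 and rest on weak signals. miR-152-3p had a scaled net intensity of 42.8 on the SPF and 35.4 on the germ-free array, a log2 ratio of 0.27 with a technical SD of 0.27. miR-148b-3p had 30.5 on the SPF and 37.6 on the germ-free array, a log2 ratio of -0.30 with a technical SD of 0.30. Each of these ratios is about as large as its own technical SD, and 41.1% and 36.5% of the shared probes had a ratio at least as far from 0 as those of miR-152-3p and miR-148b-3p. With the spread of spots without a probe in place of the blanks, the technical SDs were 0.60 for miR-152-3p and 0.69 for miR-148b-3p, against 0.15 for miR-148a-3p. The signals of miR-152-3p and miR-148b-3p were too weak to show a change of 0.60 or 0.69, or one somewhat larger, in either direction.

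Of the 3 family probes above the floor on both arrays, 1 was at least 2-fold higher on the SPF array and 0 were lower by that much. Over all 1471 shared probes the share past 2-fold was 1.56% upward and 1.43% downward. The median ratio of the 3 family probes was 0.27, beside -0.06 over all shared probes. That median is the ratio of the weak miR-152-3p probe, about as large as its technical SD, and does not show a shift of the family as a whole. The balance of calls over all probes, 23 higher and 21 lower, moved with the scaling, to 39 and 9 without scaling and to 15 and 36 with scaling on the control probes. These settings shifted the median of all shared probes by 0.24 and -0.13, and each member's ratio by the same amounts.

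**Figure D2:**
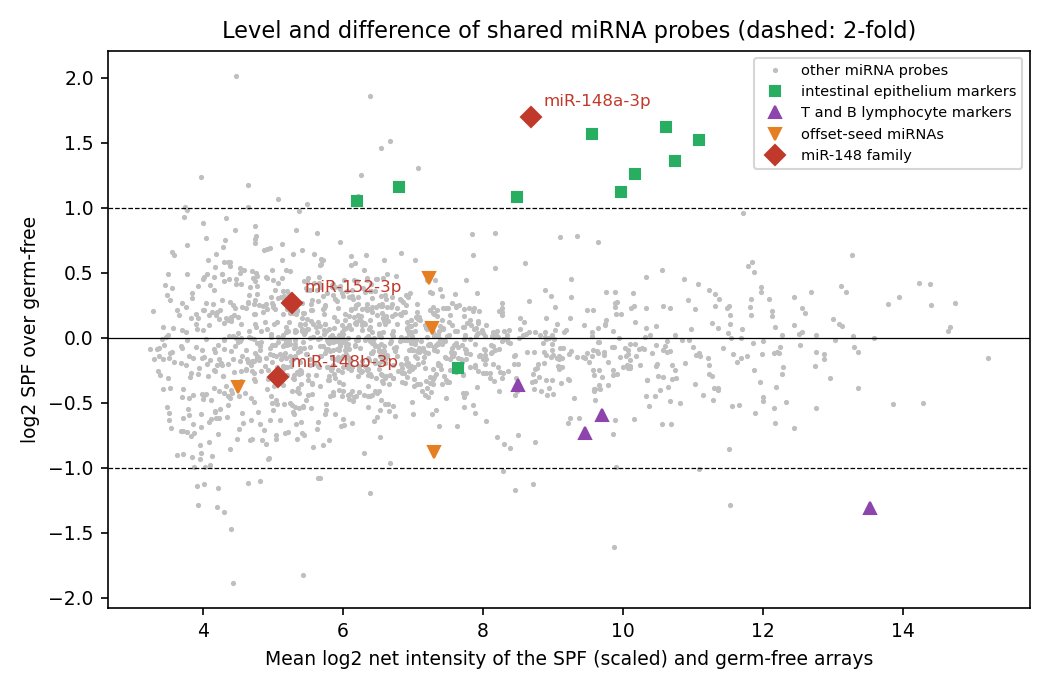
Log2 SPF over germ-free against the mean log2 net intensity of both arrays (SPF scaled), for the 1471 miRNA probes above the floor on both arrays (grey), with the family (diamonds), epithelial and lymphocyte markers and offset-seed miRNAs marked; dashed lines show 2-fold. miR-148a-3p lies at 1.70, above the plotted epithelial markers, which run from -0.23 to 1.62. miR-152-3p at 0.27 and miR-148b-3p at -0.30 lie within the cloud of weak probes.

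The 3p probes, which share a seed, had unlike ratios on these arrays. The ratio of miR-148a-3p exceeded that of miR-148b-3p by 2.01 (technical SD 0.33) and that of miR-152-3p by 1.43 (technical SD 0.30). miR-152-3p exceeded miR-148b-3p by 0.58 (technical SD 0.41). With the spread of spots without a probe these technical SDs were 0.70, 0.62 and 0.91. The differences rest on 1 spot per probe and array. The probe for miR-148b-3p, whose target shares 20 of 22 bases with miR-148a-3p, was at 35.9 before scaling on the SPF array and 37.6 on the germ-free array, while the miR-148a-3p probe was at 874.7 and 228.2. The binding of one member's RNA to another member's probe was not tested beyond these values.

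For none of the 3 precursors can the ratios of the 2 arms be told apart, because every 5p value is a bound at the floor and lies under the line from spots without a probe. miR-148a-5p was under the floor on the SPF array, with a net intensity of 9.84 before scaling on the SPF array and 9.44 on the germ-free array, about 2 SD of the blank spots. Its log2 ratio with the floor in place of the SPF value was -0.06, against 1.70 for the 3p arm. That gap of 1.76 depends on the floor and the background, and was 1.24 without background subtraction and 1.94 with the block median of the blank spots subtracted. For miR-148b, the 5p ratio was 0.47 or higher against -0.30 for the 3p arm. For miR-152, the 5p ratio was -0.71 or lower against 0.27 for the 3p arm.

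How the background was removed changed the size for miR-148a-3p but not its direction. The local background beside its spot was 469.6 on the SPF and 298.9 on the germ-free array, much higher than the blank mean. Signal over local background was 563.4 on the SPF array and 57.9 on the germ-free array, and with local background subtracted the log2 ratio was 2.81. Without any background subtraction it was 1.26. Of 13 alternative settings, all 13 kept miR-148a-3p at least 2-fold higher on the SPF array. Its rank among the shared probes ran from 2 to 24 over these settings. The brightest of the 5 spots touching it was miR-30d-5p, at 1812 on the SPF and 1589 on the germ-free array. With local background subtracted, miR-152-3p was at -0.35 and miR-148b-3p at 0.06, the reverse of their directions with the blank background. The brightest spot next to miR-152-3p was miR-24-3p, at 7130 on the SPF and 5921 on the germ-free array.

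**Figure D3:**
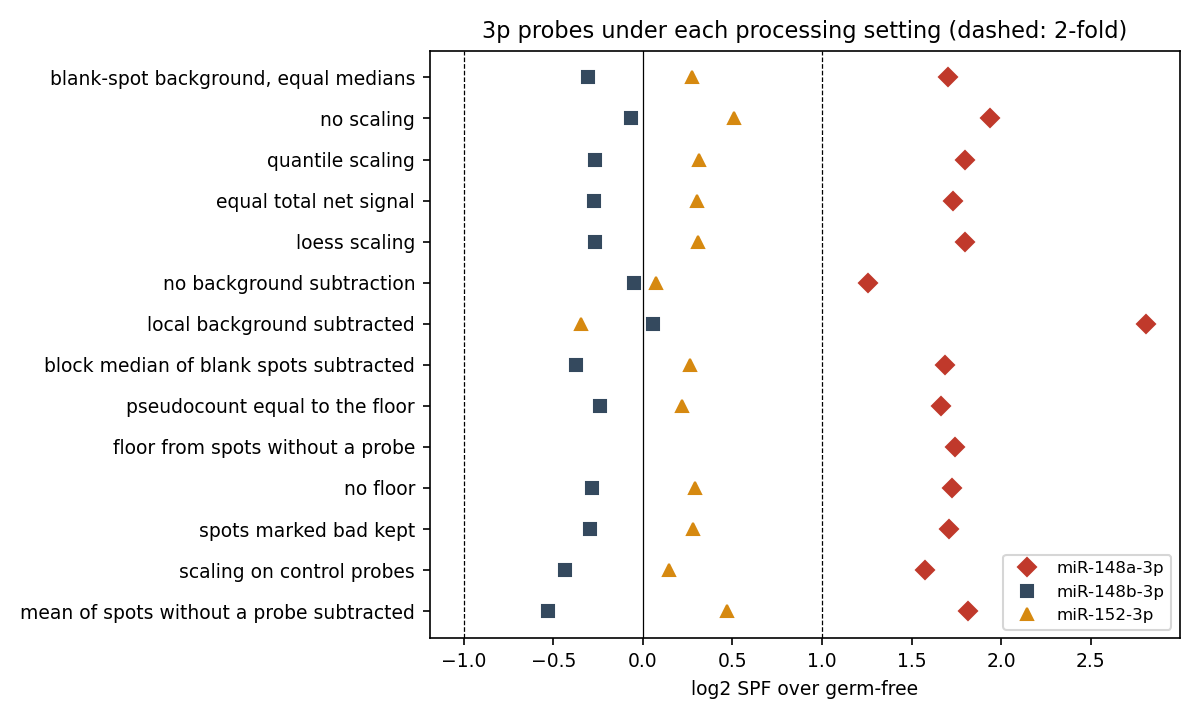
Log2 SPF over germ-free of the 3p probes under each processing setting, 1 point per probe and setting (dashed lines, 2-fold); a ratio that is only a bound is left out. miR-148a-3p runs from 1.26 to 2.81, miR-152-3p from -0.35 to 0.51 and miR-148b-3p from -0.53 to 0.06.

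A second group of miRNAs carries the same 7 bases shifted by 1 position. These offset-seed miRNAs have CAGUGCA at bases 1 to 7, and their own seed at bases 2 to 8 is AGUGCAA, so their sites overlap with those of the family only in part. The 7 such probes were found among the 1618 with a sequence in the table, and the 2 brightest on the SPF array are shown with the shared bases in capitals.
miR-130a-3p: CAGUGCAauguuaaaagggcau
miR-130b-3p: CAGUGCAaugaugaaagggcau

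Of the offset-seed probes, 4 were above the floor on both arrays. miR-130a-3p was at 0.08, miR-130b-3p at 0.46, miR-301a-3p at -0.38 and miR-721 at -0.88. Their median was -0.15, and 0.09 without scaling. Of the 4, 0 were at least 2-fold apart in either direction. Over all shared probes only 1.56% were higher and 1.43% lower by that much, so this count does not set them apart. With local background subtracted miR-130a-3p was at 2.99, miR-130b-3p at -0.07 and miR-721 at 0.17. miR-130b, like miR-148a, has been linked to repression of the LDL receptor.

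The miRNAs nearest to each member were sought by distance on the plane of the 2 log2 scaled net intensities, over 2 arrays. The distance includes the ratio the family was selected on and the brightness of unlike probes, so it describes positions on these arrays only. miR-141-3p, of the epithelial miR-200 family, was nearest to miR-148a-3p, at a distance of 0.52, with 524.5 on the SPF and 247.3 on the germ-free array and a ratio of 1.09. The next were miR-7023-5p at 0.80 and miR-5110 at 0.89, with ratios of 0.58 and 0.78. The nearest to miR-148b-3p were miR-7051-3p, miR-7225-3p and miR-6910-3p, at distances of 0.02 to 0.05. Those nearest to miR-152-3p were miR-145b, miR-7237-5p and miR-7659-3p, at distances of 0.01 to 0.05. Both of these members lie in the dense region of weak probes, where neighbours are close whatever they are.

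Markers of the epithelium, a tissue next to the lamina propria that also makes miR-148a, were higher on the SPF array as well. Of the 10 epithelial marker miRNAs, 9 were at least 2-fold higher by their brighter arm, and the exception was miR-375-5p at -0.23. Counting every arm, 10 of their 19 shared probes were at least 2-fold higher and 0 were lower by that much. Over all shared probes the share was 1.56% higher and 1.43% lower. Their summed scaled net intensity was 14820 on the SPF and 5727 on the germ-free array, and the median ratio was 1.21. The scaled net intensity of the weakest, miR-203-3p, was 106.0 on the SPF and 51.0 on the germ-free array, so every marker had signal. Among the other arms of these markers, miR-192-3p was at 2.01, miR-141-5p at 0.52 and miR-375-3p at -0.01. Beside the 1.70 of miR-148a-3p, miR-192-5p was at 1.62, miR-429-3p at 1.57 and miR-200b-3p at 1.53. Without background subtraction miR-148a-3p was at 1.26, with miR-192-5p at 1.46, miR-200b-3p at 1.40 and miR-429-3p at 1.30. With local background subtracted miR-148a-3p was at 2.81, with miR-200b-3p at 0.86 and miR-200a-3p at -0.14. In that setting miR-192-5p and miR-429-3p had no value. The epithelial median ran from 0.69 with local background subtracted, where 7 of the 10 had a value, to 1.45 without scaling. The part of epithelial cells in the miR-148a-3p result was not tested. In bulk samples, more cells of a type and more RNA per cell cannot be told apart.

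The lymphocyte markers, which mark cells in which miR-148a also acts, were lower on the SPF array with the blank background. All 4 had a ratio below 0, with a median of -0.66 and a summed scaled net intensity of 9100 on the SPF and 21042 on the germ-free array. Among them, miR-150-5p, which is abundant in mature lymphocytes, was at -1.31. With local background subtracted, miR-342-3p was at 1.53 and the other lymphocyte markers had no value. Of the leukocyte and myeloid markers, miR-142a-5p was at -0.66 and miR-223-3p at 0.74 by their brighter arms, with a summed scaled net intensity of 4720 on the SPF and 6421 on the germ-free array. Counting every arm, 1 of their 3 shared probes was at least 2-fold lower and 0 were higher by that much. Over all shared probes 1.43% were lower and 1.56% higher by that much. By their brighter arms, the smooth muscle and stroma markers ran from -0.34 to 0.32 (summed 1153 on the SPF and 1247 on the germ-free array), the erythrocyte markers from -0.77 to -0.27 (5195 and 6418), and the endothelial miR-126a-3p was at 0.25 (79.5 and 66.8). The other arm of the smooth muscle miR-143, miR-143-3p, was at 0.45, with a scaled net intensity of 186.8 on the SPF and 137.2 on the germ-free array. The part of any of these cells in the miR-148a-3p result was not tested either.

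Other miRNAs that act on the pathways of the family's known targets were taken as 3 lists. The list of 10 miRNAs reported to target DNA methyltransferases had a median ratio of -0.55 over the brighter arms, with 3 above 0 and 7 below. Of its 17 shared probes 1 was at least 2-fold lower and 0 were higher by that much. Over all shared probes 1.43% were lower and 1.56% higher by that much. The miR-29 family, which represses Dnmt3a and Dnmt3b, was at -0.70 for miR-29a-3p, -0.67 for miR-29c-3p and -0.50 for miR-29b-3p, below 0 under every setting that gave a value. miR-101a-3p was at -1.08, with scaled net intensities of 35.2 on the SPF and 74.5 on the germ-free array. This was the one 2-fold call of the list, and it was lost without scaling (-0.84), with the pseudocount (-0.92), without background subtraction (-0.30) and with local background subtracted (-0.30), and had no value with the floor from empty spots. The list median was -0.22 with that floor and ran down to -0.67 with scaling on the control probes. miR-101b-3p was at -0.84, and miR-21a-5p was at 0.96. The positive ratio of miR-148a-3p, on which the family was selected, had the opposite sign to these miR-29 values. It had the same sign as miR-21a-5p, miR-185-5p at 0.27 and miR-126a-3p at 0.25 in this list. A link through DNA methyltransferases was not tested.

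The list of 11 miRNAs linked to the LDL receptor, ABCA1 or sterol genes had a median of 0.27, with 6 above 0 and 5 below. Of its 18 shared probes 0 were at least 2-fold apart, where 1.56% of all shared probes were higher and 1.43% lower by that much. The values of largest size in this list were 0.99 for miR-122-5p and -0.90 for miR-301b-5p, both near the floor, then -0.77 for miR-144-3p and 0.74 for miR-223-3p. The arm was picked by brightness, as for miR-301b-5p, miR-128-2-5p and miR-758-5p, and need not be the arm linked to these genes. The cholesterol list median was -0.07 with local background subtracted. The list of 10 miRNAs of B and T cells had a median of -0.25, with 4 above 0 and 6 below, and 1 of 19 shared probes at least 2-fold lower, beside 1.43% over all shared probes. It was led by miR-150-5p, followed by miR-21a-5p, miR-181a-5p at -0.73 and miR-342-3p at -0.59. The median of this list was 1.22 with local background subtracted, over the 6 that had a value, so its direction depends on that choice.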

How the data were processed

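Total RNA was labelled with Hy5 by an Exiqon labelling kit, per the labels' protocols. The deposited values are the authors' median spot and local background intensities for 3200 spots per array, from scans at 3 gains per the file headers. They carry no recorded background subtraction or scaling. The platform and the scanner software were not stated. The number of arrays, 1 per group, limits the precision.

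Background was the mean of the BLANK spots, leaving out 1 blank marked NG on the SPF array. Where a probe was under the floor on 1 array, the floor replaced its value and the ratio is a bound. Group came from the sample titles. The members, lists, processing and rule for named miRNAs (all member arms, offset-seed miRNAs, the 3 nearest to each brighter arm, and up to 4 members of each list) were chosen with earlier results of these data known. For list medians each precursor stood as its brighter arm, among arms above both floors. In any list this need not be the arm reported to act, and miR-143-5p and miR-210-5p are examples of 5p arms taken this way. Of the 10 DNA methyltransferase miRNAs 3 belong to another list and 3 are cell type markers, of the 11 cholesterol miRNAs 1 and 2, and of the 10 B and T cell miRNAs 2 and 4. Sequences are from RefSeq (GRCm38.p6) and genes from GENCODE M21. The calculation was tested on simulated arrays, where recovery of the ratios was checked only for probes brighter than the median shared probe. Of the family, miR-148a-3p alone is that bright, so the simulation does not cover the weaker members. Alternatives changed the scaling, background, floor, pseudocount and fold threshold. Python 3.11.15, numpy 2.4.6, pandas 2.3.3 and statsmodels 0.14.6 were used.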

Additional observations from a re-analysis of the deposited data

How the results depend on the processing

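miR-148a-3p was at 1.94 without scaling, 1.26 without background subtraction and 2.81 with local background subtracted, against 1.70, and moved by less than its technical SD under the other alternatives. The number of family probes at least 2-fold higher was 2 in place of 1 without a floor, where miR-148b-5p counted with a germ-free net intensity of 3.06, and was 1 under the other alternatives, the 3-fold threshold included. It was 0 for lower probes throughout. The bound on the difference between the miR-148a arms and the median of the family moved by less than the technical SD set for each. Both had no value under some background and floor settings, such as the stricter floor for the median. Over all probes, the counts higher and lower were 23 and 21, then 39 and 9 without scaling, 6 and 3 without background subtraction, 97 and 51 with local background subtracted, 15 and 10 with a pseudocount equal to the floor, 17 and 6 with the floor taken at spots without a probe, 66 and 86 without a floor, 68 and 112 at 1.5-fold and 4 and 3 at 3-fold. Chosen after seeing the data, scaling on control probes gave 15 and 36, and subtracting the mean of spots without a probe gave 70 and 70. The cause of these shifts was not tested. Under that stricter floor, from empty spots, miR-148b-3p had only an upper bound of 0.03 and miR-152-3p a lower bound of 0.24. No paired analysis was possible because each group has 1 array. Signal over background limits miR-148b-3p, miR-152-3p and all 5p arms. For miR-148a-3p the germ-free signal over local background, 57.9, is a limit too.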
